A study of Mus musculus with 96 samples.

Results

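The enzymes and regulators of cholesterol and fatty acid synthesis were followed in RNA from mouse striatum, the brain region made mostly of medium spiny neurons. The module was a list of 34 gene symbols (8 of the mevalonate steps, 11 of the squalene and sterol steps, 6 regulators and transfer proteins, and 9 of fatty acid synthesis, desaturation and lipid assembly), and all 34 were found among the 24060 gene entries of the deposited files. In this pathway acetyl-CoA is built into mevalonate, then squalene, then sterols, while a parallel branch builds and desaturates fatty acids. The transcription factors SREBP1 and SREBP2, encoded by Srebf1 and Srebf2, sit in the endoplasmic reticulum with their escort SCAP, are held there by the INSIG proteins when sterol is plentiful, and otherwise travel to the Golgi, where they are cut and released to the nucleus. In brain, most cholesterol is made locally, and astrocytes are known as a source of sterol for neurons.

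The data were 96 libraries, 1 of IP and 1 of input from every one of 48 mice, and the mice fell into 6 experiments of 4 treated and 4 controls. All mice carried RiboTag AAV in the striatum for 3 weeks, which gives astrocytes an HA-tagged ribosomal protein (Rpl22-HA). IP is the RNA pulled down with that tag and input is the RNA of the whole lysate. In the QA experiment C57BL/6 mice received quinolinic acid (30 nM per the labels), a toxin of medium spiny neurons, in the striatum 2 weeks before, and controls received vehicle there. In the LPS experiment C57BL/6 mice received lipopolysaccharide, a trigger of inflammation, i.p. at 5 mg/kg 24 h before, and controls vehicle i.p. In the Kir4.1 experiment Kir4.1flox/flox mice received AAV5-GfaABC1D-Cre, which drives Cre from an astrocyte promoter, and controls the same virus type with TdTomato. In the IP3R2 experiment Itpr2-/- mice, lacking a calcium release channel by label, were compared with Itpr2+/+ littermates. In the remaining pair, C57BL/6 mice carried in striatal astrocytes rM3Ds or hM3Dq, designer receptors of the Gs and Gq class, and received CNO (clozapine-N-oxide, their ligand) at 1 mg/kg i.p. or vehicle. CNO was given 2 h before for rM3Ds, and its time is not stated in the labels for hM3Dq. No receptor-free mice given CNO were among the samples, so CNO and the receptor cannot be told apart.

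The IP libraries held 42482787 to 82256173 reads, and the input libraries 14738821 to 51033642. The Kir4.1 gene Kcnj10 was lower in IP of the Cre mice (27.9 to 36.1 FPKM against 142 to 164 in the TdTomato mice, log2 change -2.22, adjusted p = 1.96e-07, limma). In input its change did not pass the test (log2 change -0.82, adjusted p = 0.097, limma). Itpr2 was not lower in the mice labelled Itpr2-/- (10.4 to 14.5 FPKM against 9.92 to 13.7 in IP, log2 change 0.07, adjusted p = 0.97, limma). These files give no check of the deleted part of that gene, and the group is called the Itpr2-/- label from here on. IP of control mice was richer than input in 12 of 12 astrocyte markers (median log2 ratio 2.64) and poorer in 9 of 9 microglial ones (median -4.91). Of 12 oligodendrocyte markers 5 were higher and 3 lower in IP. Ependymal markers were higher for 5 of 5 (median 1.76), and oligodendrocyte precursor markers for 5 of 6 with none lower (median 0.324). General neuronal markers were 3 higher and 3 lower of 6, and mural ones 2 higher and 3 lower of 5. Lower in IP were all 9 tested medium spiny neuron, all 6 endothelial and all 4 tested leukocyte markers. By Xist and Y-linked genes, the QA controls were 4 females and the QA mice 1 female and 3 males, so sex differed between those arms.

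In the 24 control mice nearly the whole module was more abundant in IP than in input. Of 34 genes, 31 were higher in IP and 1 was lower, beside 88.7% of the 15566 genes tested, 42.9% higher and 45.8% lower (limma with the mouse as a block, Benjamini-Hochberg adjusted p under 0.05, the rule used for every count below). The median log2 ratio of the 34 was 1.23, beside -0.0375 over all genes. By step the median was 0.87 for the mevalonate steps, 1.23 for the squalene and sterol steps, 0.72 for regulators and transfer, and 1.74 for the fatty acid group. In bulk RNA like this, a change in the number of cells of a type and a change in RNA per cell cannot be told apart.

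The lipid desaturases and fatty acid enzymes led this ratio. Fads2, the delta-6 desaturase of polyunsaturated fatty acids, had a lowest, median and highest level over the 24 mice of 240.1, 306 and 501 FPKM in IP and of 51.4, 76.9 and 83.7 FPKM in input. Its log2 ratio was 2.37 (SE 0.049, a 5.16-fold excess), the highest of the module. For Fads1, the delta-5 desaturase, the lowest, median and highest were 171, 232 and 386 FPKM in IP and 54.4, 61.6 and 72.9 in input (log2 ratio 2.17). The lowest IP library of either gene was above the highest input library. Srebf1 ran through 44.6, 62.2 and 114 FPKM in IP against 13.4, 17.8 and 25.2 in input (2.08). Scd2, a stearoyl-CoA desaturase and by FPKM the most abundant gene of the module, ran through 898, 1050 and 1402 FPKM in IP against 270.5, 305 and 351.5 in input (2.02). Its paralog Scd1 ran through 93.9, 124 and 183 FPKM against 32.2, 39.3 and 56.1 (1.88). Scd1 and Scd2 are closely related genes, and how shared reads were divided between them is not given in the sources used here. Acly, ATP citrate lyase, which supplies cytosolic acetyl-CoA, ran through 162, 199.9 and 225 FPKM in IP against 61.7, 67.3 and 76.5 in input (1.74). None of these 6 genes had an IP library within the range of its input libraries.

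Of the sterol genes, Hmgcs1, the synthase that makes HMG-CoA, was the most abundant in IP (151 ± 19.2 FPKM, SD, n = 24, against 54.7 ± 7.45 in input). Msmo1, the C4-methylsterol oxidase, came next at 107 ± 19.2 against 46.5 ± 5.55 FPKM. At the other end Idi1, isopentenyl diphosphate isomerase, was at 3.59 ± 1.74 and Stard4, a sterol transfer protein, at 3.80 ± 0.576 FPKM in IP. Ggps1, which makes geranylgeranyl diphosphate at a branch away from sterols, was the only gene called lower in IP (log2 ratio -0.28, 0 of 24 mice higher in IP). Its lowest, median and highest were 16.3, 19.5 and 23.7 FPKM in IP against 22.5, 26.8 and 32.7 in input. Insig2 (log2 ratio 0.00, adjusted p = 0.90) and the elongase Elovl6 (0.02, adjusted p = 0.52) did not pass the test, and their FPKM ranges overlapped between fractions. Before scaling, their FPKM was higher in IP in only 2 and 4 of the 24 mice. Ebp, a sterol isomerase, was called at only 0.19, and without TMM factors, which moved the median of all genes to -0.24, its ratio turned to -0.02. Without these factors 30 members were called higher and 3 lower in IP, beside 89.6% of all genes called. Within each experiment's own 4 control mice, 31 or 32 of the 34 genes were called, with 30 or 31 higher and 1 lower. The control groups also differed in level. The summed FPKM of all 34 genes in IP was 3767 ± 145 (SD, n = 4) in the hM3Dq vehicle mice and 2573 to 2966 on average in the other 5 control groups. Each experiment had a sequencing project of its own, so experiment and project cannot be told apart.

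**Figure D1:**
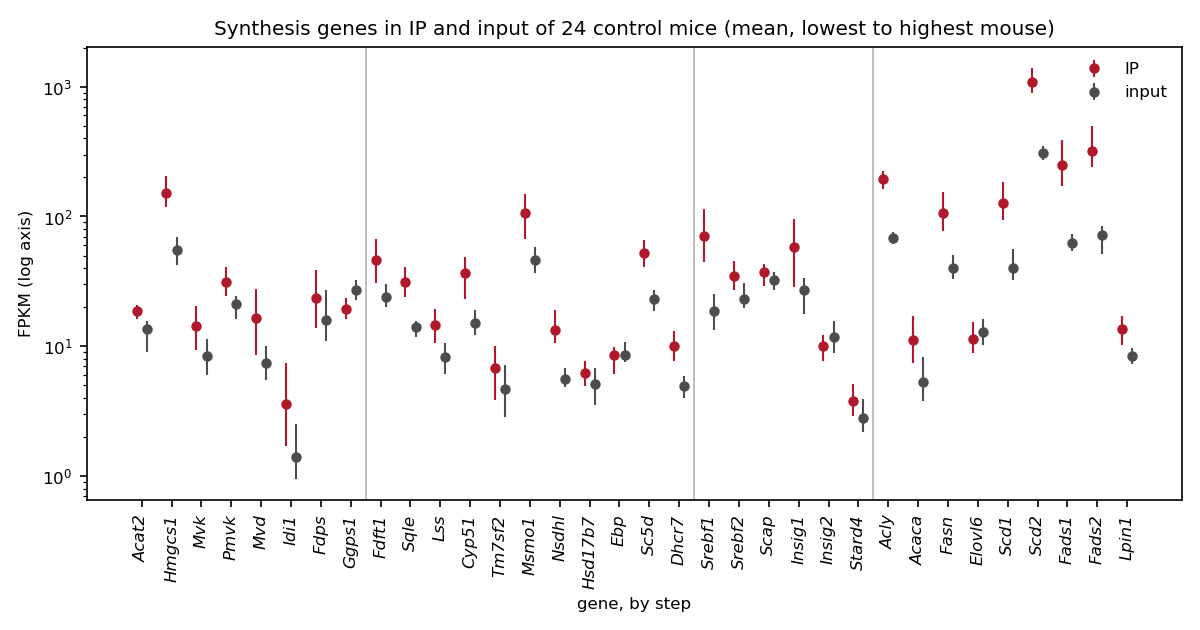
FPKM (log axis) of the 34 genes in IP and input of the 24 control mice. Points are means, bars run from the lowest to the highest mouse, and grey lines part the steps. The IP means lie above the input means except for Ggps1, Insig2, Elovl6 and Ebp.

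Promoter sequence was read for the members because many of them moved together in the experiments below. RefSeq (GRCm38.p6) promoters, 250 bases before to 50 after the start, matched 27 of the 34 symbols. They were searched on both strands for letters known from sterol-regulated promoters. The sterol response element letters TCACNCCAC were found in 1 of 27 (3.70%, Hmgcs1) and in 1.44% of all 27025 promoter genes. The E-box CACGTG was found in 5 of 27 (18.5%, against 8.09% of all). The CCAAT box, bound by NF-Y, was found in 21 of 27 (77.8%, against 41.1% of all). These matches describe the letters in the window and are not evidence of binding. The 4 promoters below belong to the genes with the largest summed change over the IP comparisons: phosphomevalonate kinase (Pmvk), mevalonate diphosphate decarboxylase (Mvd), mevalonate kinase (Mvk) and Msmo1. Capitals mark CCAAT or its reverse complement ATTGG, and all are written 5′ to 3′ along the gene's strand.
Pmvk, chr3:89454291-89454590, plus strand, first of 2 listed starts: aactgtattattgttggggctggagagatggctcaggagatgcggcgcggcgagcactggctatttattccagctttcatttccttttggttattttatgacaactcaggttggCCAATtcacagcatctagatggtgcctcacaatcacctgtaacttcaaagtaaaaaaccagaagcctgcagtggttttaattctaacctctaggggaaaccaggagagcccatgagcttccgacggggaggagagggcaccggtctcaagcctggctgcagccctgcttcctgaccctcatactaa
Mvd, chr8:122443373-122443672, minus strand: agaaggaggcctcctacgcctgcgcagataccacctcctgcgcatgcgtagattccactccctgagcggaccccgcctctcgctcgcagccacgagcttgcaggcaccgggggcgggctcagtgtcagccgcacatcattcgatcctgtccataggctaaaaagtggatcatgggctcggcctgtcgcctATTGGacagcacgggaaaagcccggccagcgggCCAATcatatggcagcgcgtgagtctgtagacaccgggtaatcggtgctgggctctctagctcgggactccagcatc
Mvk, chr5:114444019-114444318, plus strand: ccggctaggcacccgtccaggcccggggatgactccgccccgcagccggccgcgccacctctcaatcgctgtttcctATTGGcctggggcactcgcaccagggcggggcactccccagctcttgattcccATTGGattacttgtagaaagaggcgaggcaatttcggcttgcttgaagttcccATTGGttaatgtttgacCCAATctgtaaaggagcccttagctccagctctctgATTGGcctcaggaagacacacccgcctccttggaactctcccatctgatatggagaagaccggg
Msmo1, chr8:64733529-64733828, minus strand: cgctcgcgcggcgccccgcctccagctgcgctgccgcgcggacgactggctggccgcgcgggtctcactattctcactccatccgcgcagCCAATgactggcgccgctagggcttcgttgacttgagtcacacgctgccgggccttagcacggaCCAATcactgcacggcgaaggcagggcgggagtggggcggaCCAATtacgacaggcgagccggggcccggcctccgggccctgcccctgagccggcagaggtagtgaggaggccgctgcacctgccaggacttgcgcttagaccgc
The Mvk window held 5 such matches, Msmo1 3, Mvd 2 and Pmvk 1. None of the 4 held TCACNCCAC or CACGTG.

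With CNO in hM3Dq mice the sterol branch rose along nearly its whole length in IP. Of the 34 genes, 21 were higher and 5 lower (background: 45.4% of 13563 genes called, 24.3% higher and 21.1% lower). All 8 mevalonate genes had a positive log2 change, 7 of them called, and 9 of 11 squalene and sterol genes were called higher with none lower. Regulators and transfer proteins split 2 higher and 2 lower, and the fatty acid group 3 higher and 3 lower. The median log2 change of the 34 was 0.47, beside -0.00209 over all genes. The summed FPKM of the mevalonate and sterol steps was 743 ± 57.9 (SD, n = 4) in the vehicle mice and 1905 ± 107 in the CNO mice.

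Pmvk, whose promoter is shown above and which adds the next phosphate to phosphomevalonate, gave the largest rise. Its IP level was 36.8, 41.1, 33.8 and 39.1 FPKM in the vehicle mice and 278, 214, 294 and 229.8 FPKM in the CNO mice. The arms lay far apart, and the log2 change was 2.78 (SE 0.107, a 6.87-fold rise, adjusted p = 8.08e-08). Msmo1 stood at 131, 137, 133 and 148 FPKM against 607, 668, 609 and 583 FPKM. No CNO library came near the vehicle range, and the log2 change was 2.21 (SE 0.0753, adjusted p = 3.69e-08). Mvk, the kinase before Pmvk, stood at 17.9, 20.6, 19.6 and 18.3 FPKM against 69.4, 48.5, 63.6 and 55.9 FPKM. Again the arms did not overlap (log2 change 1.66, SE 0.106, adjusted p = 1.63e-06). Arms without overlap were found for 20 members upward and 6 downward of 34, beside 21.0% and 22.7% of all genes tested.

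Hsd17b7, a sterol ketoreductase, stood at 7.75, 6.07, 5.22 and 6.71 FPKM against 17.4, 20.6, 17.01 and 17.6 FPKM (log2 change 1.53, adjusted p = 6.47e-06). Dhcr7, the final reductase toward cholesterol, stood at 11.9, 13.2, 11.9 and 13.0 FPKM against 33.5, 38.6, 31.9 and 28.5 FPKM (1.43, adjusted p = 3.59e-06). Mvd, the decarboxylase after Pmvk, stood at 26.3, 27.6, 23.9 and 24.8 FPKM against 57.6, 69.6, 49.9 and 52.2 FPKM (1.19, adjusted p = 2.14e-05). In each of these 3 genes every CNO library was above every vehicle library. Insig1, the retention protein that is itself a target of SREBP, rose less, from 95.3, 84.3, 71.4 and 85.7 FPKM to 113, 129, 112 and 95.9 FPKM (0.46, adjusted p = 0.00923). Srebf1 went the other way, from 114, 102, 111 and 100.2 FPKM to 60.4, 61.4, 59.9 and 55.9 FPKM. It fell by 0.81 on the log2 scale (SE 0.0691, adjusted p = 1.09e-05), with no overlap between arms. Srebf2, by contrast, had a log2 change of 0.10 and did not pass the test (adjusted p = 0.38).

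The other called genes rose by log2 changes of 0.23 (Ebp) to 1.17 (Cyp51, lanosterol demethylase). They included Idi1 (1.07), squalene epoxidase Sqle (1.05), Hmgcs1 (0.95), Stard4 (0.95), lanosterol synthase Lss (0.85) and Scd1 (0.80). The desaturases Fads2 (-0.67) and Fads1 (-0.54), acetyl-CoA carboxylase Acaca (-0.27) and Scap (-0.18) fell. Ebp lost its call under RLE scaling, no scaling, no filter, voom on recovered reads, and when any of 6 of the 8 libraries was left out. Scap lost it without vehicle replicate 3 or 4 or CNO replicate 3 or 4, and Acat2 (0.29, acetoacetyl-CoA thiolase) without vehicle replicate 1. Astrocyte markers also moved: 8 of 12 were lower in IP of the CNO mice and none higher (median log2 change -0.51). Their summed level was 10336 to 11277 FPKM in the vehicle mice and 6726 to 9003 FPKM in the CNO mice, with no marker at 0. All 5 ependymal markers were lower too (summed level 113.5 to 161 FPKM in vehicle and 45.2 to 82.1 in CNO mice), as were 4 of 6 oligodendrocyte precursor markers (67.7 to 78.1 against 45.1 to 49.5 FPKM) and 2 of 4 tested mural cell markers (23.7 to 26.7 against 13.6 to 19.3 FPKM). None of these was at 0 throughout a group, and the part of these shifts in the result was not tested. Of 41 tested genes of a wider lipid list, 11 were higher and 11 lower. Thrsp, a regulator of lipogenesis, fell by 2.17 on the log2 scale (37.3 ± 1.53 to 8.15 ± 1.91 FPKM, SD, n = 4), and the elongase Elovl7 rose by 1.92 (3.88 ± 0.50 to 14.5 ± 0.597 FPKM). Lpin3, a phosphatidate phosphatase, rose by 1.09, and the elongase Elovl5 by 0.91.

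**Figure D2:**
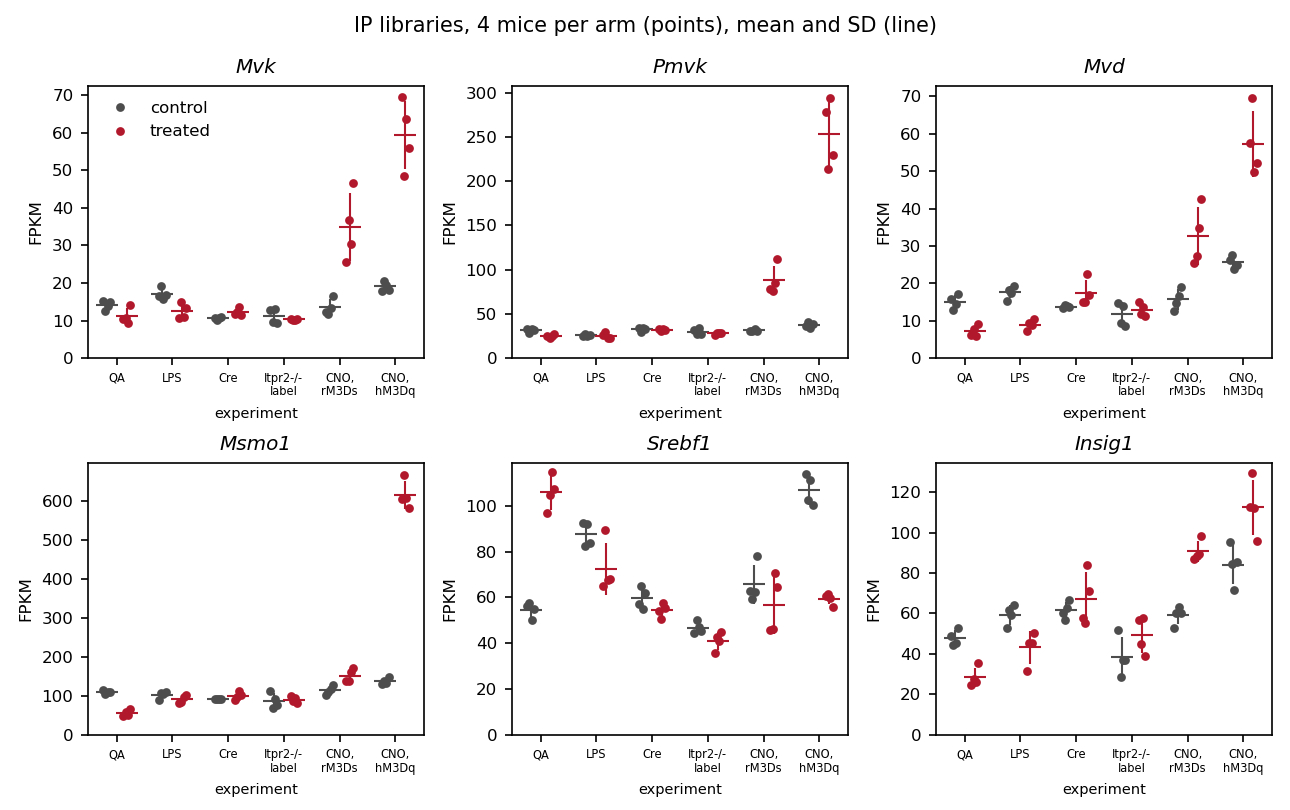
FPKM in IP of 6 genes in all 12 groups, with 4 mice per arm as points and the mean and SD as a line. Pmvk, Mvk, Mvd and Msmo1 stand highest in the hM3Dq CNO mice, where Pmvk reached 214 to 294 FPKM, while Srebf1 is lower there than in its vehicle mice and higher in QA mice than in theirs.

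In input of the same mice the pattern was smaller. There 10 members were higher and 3 lower (background: 3.72% of 14663 genes called, 2.68% higher and 1.04% lower). All 10 that rose in input had also risen in IP, where 24.3% of all genes tested were called higher. The same overlap was not counted over all genes, so it cannot be said whether it is particular to the members. Pmvk stood at 18.5, 20.1, 22.6 and 21.4 FPKM in vehicle input against 47.8, 46.2, 59.2 and 52.5 FPKM in CNO input (log2 change 1.30, SE 0.0869, adjusted p = 4.33e-05). Msmo1 stood at 44.9, 47.7, 50.8 and 49.4 FPKM against 102, 110.1, 118 and 119 FPKM (1.21, adjusted p = 5.73e-06). Both genes were apart between the arms in whole lysate too. Mvk was at 9.56, 10.1, 7.60 and 9.48 FPKM against 12.6, 13.7, 14.1 and 15.1 FPKM (0.59, adjusted p = 0.00624). Sqle was at 13.4, 14.0, 11.9 and 14.2 FPKM against 18.4, 19.5, 18.2 and 21.7 FPKM (0.53, adjusted p = 0.00367). Cyp51 was at 12.2, 14.3, 13.2 and 14.0 FPKM against 17.7, 17.8, 19.4 and 22.3 FPKM (0.51, adjusted p = 0.00699). Every CNO input library was above every vehicle one in these 3 genes. In input the arms were apart for 15 members upward and 3 downward of 34, beside 6.31% and 4.28% of all genes tested. Mvd was at 8.08, 8.71, 8.41 and 10.1 FPKM against 10.6, 12.6, 11.4 and 14.3 FPKM (0.46, adjusted p = 0.0422). Srebf1 was at 21.4, 21.7, 21.8 and 23.7 FPKM against 15.9, 19.3, 16.5 and 17.4 FPKM (-0.37, adjusted p = 0.0124). The other members called in input were Scd1 (0.42), Hmgcs1 (0.42), Fdps (0.35, farnesyl diphosphate synthase), Lss (0.28), Fads2 (-0.31) and Fads1 (-0.22). Leaving out 1 library brought the count to between 9 and 13, and Mvd, Fdps, Lss or Fads1 were the calls lost. Of the markers in input, 4 of 12 astrocyte ones were lower with none higher (summed level 1573 to 1623 FPKM in vehicle and 1327 to 1439 in CNO mice), and 3 of 5 ependymal ones were lower (26.9 to 34.9 against 14.8 to 19.7 FPKM). None was at 0 throughout a group, and their part in the result was not tested.

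The effect in IP differed from that in input for 20 of the 34 genes, 16 more positive and 4 more negative in IP (background: 21.3% of 15142 genes, 12% and 9.38%). The largest differences in log2 change were 1.45 for Pmvk (adjusted p = 2.92e-05), 1.06 for Hsd17b7, 1.04 for Mvk, 1.04 for Dhcr7 and 0.97 for Msmo1. Srebf1 differed by -0.47 (adjusted p = 0.00455).

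With CNO in rM3Ds mice the rise was narrower. Of the 34 genes, 9 were higher in IP and 0 lower (background: 4.58% of 13535 genes called, 3.32% higher and 1.26% lower). The 9 were 4 of 8 mevalonate genes, 3 of 11 squalene and sterol genes, Insig1 and Lpin1. The median log2 change over the 34 was 0.08, beside 0.00165 over all genes. The summed FPKM of the mevalonate and sterol steps was 625 ± 37.1 (SD, n = 4) in the vehicle mice and 816 ± 74.3 in the CNO mice.

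Pmvk again changed most, from 30.4, 31.2, 33.4 and 31.0 FPKM to 78.3, 76.4, 84.6 and 112 FPKM (log2 change 1.47, SE 0.109, a 2.77-fold rise, adjusted p = 4.02e-05). Mvk rose from 12.3, 11.7, 13.5 and 16.5 FPKM to 25.7, 36.7, 30.4 and 46.7 FPKM (1.35, SE 0.176, adjusted p = 0.00164). Hsd17b7 rose from 6.94, 6.75, 6.42 and 6.89 FPKM to 12.8, 13.5, 14.5 and 17.1 FPKM (1.09, SE 0.0816, adjusted p = 4.21e-05). The arms of these 3 genes were apart. So were those of 11 members upward and 1 downward of all 34, beside 5.21% and 4.88% of all genes tested. Mvd rose from 12.5, 14.6, 16.7 and 19.0 FPKM to 25.5, 27.4, 34.9 and 42.6 FPKM (1.05, adjusted p = 0.00738). Insig1 rose from 52.7, 60.0, 63.1 and 60.4 FPKM to 86.9, 88.7, 89.3 and 98.5 FPKM (0.63, adjusted p = 5.06e-04). Idi1 rose from 2.66, 2.50, 2.89 and 3.18 FPKM to 3.77, 3.50, 4.76 and 5.32 FPKM (0.61, adjusted p = 0.0338). Here too no CNO library fell within the vehicle range. Msmo1 (0.42), Cyp51 (0.39) and the phosphatidate phosphatase Lpin1 (0.35) were the other called genes. Idi1 and Msmo1 lost their calls without vehicle replicate 1, 2 or 3 or CNO replicate 3 or 4, and Cyp51 without vehicle replicate 1 or 2 or CNO replicate 1 or 4. Of 12 astrocyte markers 1 was lower, and of 12 oligodendrocyte markers 1 was higher. Of 41 genes of the wider lipid list, Elovl5 rose by 0.30 and Mid1ip1, a partner of acetyl-CoA carboxylase, fell by 0.34 on the log2 scale.

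In input 3 members were called with rM3Ds, all higher (background: 0.591% of 14387 genes, 0.57% higher and 0.0209% lower). Pmvk stood at 21.6, 22.0, 22.3 and 21.8 FPKM against 40.3, 39.4, 40.7 and 48.8 FPKM (log2 change 0.93, adjusted p = 1.56e-04). Mvk stood at 6.67, 8.11, 7.53 and 9.36 FPKM against 11.5, 12.7, 13.0 and 16.95 FPKM (0.75, adjusted p = 0.0468). Insig1 stood at 25.6, 29.1, 30.5 and 28.1 FPKM against 36.9, 34.2, 40.0 and 41.1 FPKM (0.42, adjusted p = 0.046). The arms were apart in all 3. Over the 34 members they were apart for 7 upward and 0 downward, beside 2.7% and 1.03% of all genes tested. Of these 3 calls only that of Pmvk remained without vehicle replicate 1, 2 or 3 or CNO replicate 1, 3 or 4, and without a filter on low values. Mvk also lost its call without CNO replicate 2, and Insig1 without vehicle replicate 4. The effect was larger in IP than in input for 5 genes (background: 2.19% of 14763 genes, 1.77% more positive and 0.427% more negative), with differences of 0.67 for Hsd17b7, 0.60 for Mvk, 0.57 for Mvd, 0.54 for Pmvk and 0.21 for Insig1. Without the mouse as a block 1 of these, Hsd17b7, remained.

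The CNO effect in IP was then compared between receptors, a contrast chosen after results were seen and one in which receptor, sex (hM3Dq mice all male, rM3Ds mice 2 females and 2 males per arm), time and sequencing project cannot be told apart. It differed for 16 genes, 14 with a more positive change with hM3Dq and 2 with a more negative one (background: 27.7% of 14025 genes, 15.9% and 11.8%). The largest differences in log2 change were 1.80 for Msmo1 (SE 0.117, adjusted p = 2.61e-08), 1.40 for Dhcr7 (SE 0.161, adjusted p = 9e-06) and 1.32 for Pmvk (SE 0.165, adjusted p = 2.06e-05). Dhcr7 had not passed the test with rM3Ds (log2 change 0.05, adjusted p = 0.98). For Mvk (difference 0.32, SE 0.22, adjusted p = 0.32), Mvd (0.15, SE 0.216, adjusted p = 0.67), Idi1 (0.47, adjusted p = 0.088) and Insig1 (-0.17, adjusted p = 0.42) a difference between receptors did not pass the test. Of the 9 genes called higher with rM3Ds, 8 were called higher with hM3Dq (88.9% of the first list and 38.1% of the second, beside 72.1% and 9.83% for all genes tested in both). The exception was Lpin1, at 0.17 with hM3Dq.

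**Figure D3:**
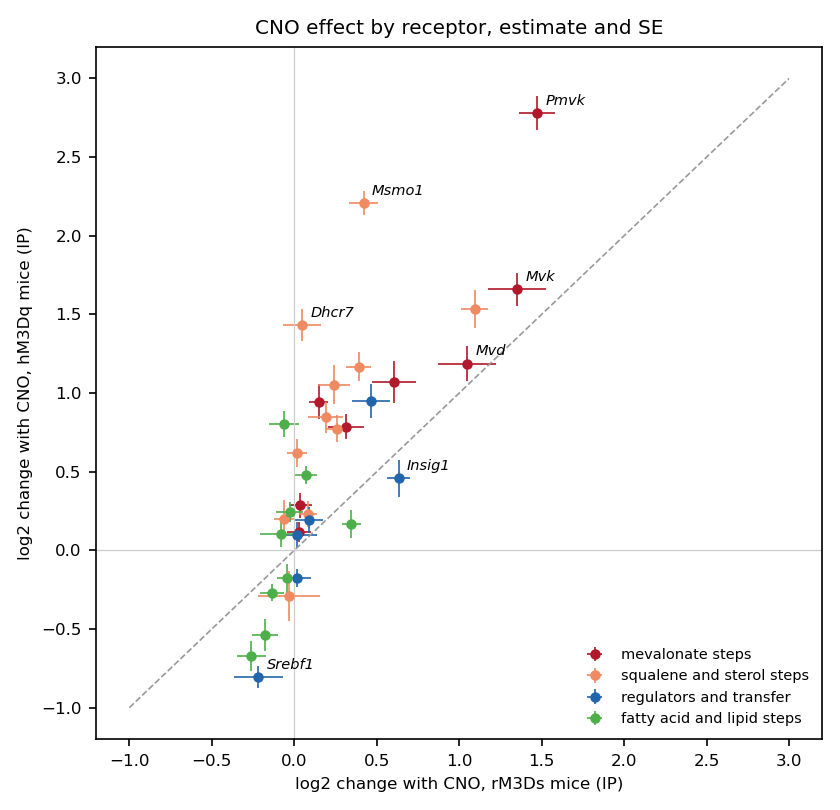
Log2 change with CNO in IP of the rM3Ds mice (x axis) and of the hM3Dq mice (y axis), 1 point per gene coloured by step, with SE bars. The dashed line marks equal change. Pmvk lies highest at 1.47 and 2.78, and Msmo1 (0.42 and 2.21) and Dhcr7 (0.05 and 1.43) lie farthest above the line.

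QA shifted the module the other way. In IP, 19 of the 34 genes were lower and 5 higher (background: 74% of 13824 genes called, 35.5% higher and 38.5% lower). All 8 mevalonate genes were called lower, beside 7 lower and 1 higher of 11 squalene and sterol genes, 2 and 2 of the regulators, and 2 and 2 of the fatty acid group. The median log2 change of the 34 was -0.34, beside -0.0231 over all genes. The called share of the members (24 of 34) was close to that of all genes. The summed FPKM of the mevalonate and sterol steps was 580.3 ± 24.3 (SD, n = 4) in the vehicle mice and 400.4 ± 38.3 in the QA mice.

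Acly fell furthest, from 181, 183, 173 and 178 FPKM to 72.9, 78.5, 77.9 and 81.0 FPKM (log2 change -1.24, SE 0.0515, adjusted p = 1.63e-07). Mvd fell from 15.7, 12.8, 14.6 and 17.3 FPKM to 6.26, 7.72, 5.98 and 8.996 FPKM (-1.10, SE 0.135, adjusted p = 5.06e-05). Msmo1 fell from 114, 105, 109 and 108 FPKM to 46.5, 58.8, 49.9 and 65.6 FPKM (-1.04, SE 0.0992, adjusted p = 9.77e-06). In these 3 genes the highest QA library was below the lowest vehicle library. Such separation was common: 6 members were apart upward and 16 downward of 34, beside 35.5% and 34.2% of all genes tested. Stard4 fell from 3.19, 3.09, 3.32 and 3.92 FPKM to 2.21, 1.77, 1.35 and 1.93 FPKM (-0.91, adjusted p = 1.97e-04). Cyp51 fell from 35.9, 33.0, 36.3 and 35.6 FPKM to 18.4, 20.6, 20.1 and 23.4 FPKM (-0.81, adjusted p = 7.19e-06). Insig1 fell from 48.9, 44.4, 45.2 and 52.9 FPKM to 24.5, 27.3, 26.0 and 35.5 FPKM (-0.80, adjusted p = 1.22e-04). Their arms did not overlap either. Srebf1 rose, from 56.0, 57.4, 50.02 and 54.7 FPKM to 96.7, 105, 115 and 107 FPKM (0.92, SE 0.0715, a 1.89-fold rise, adjusted p = 2.9e-06), and its arms were also apart. Srebf2 had a log2 change of 0.07 and did not pass the test (adjusted p = 0.40).

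The other falls ran from -0.80 (Fdps) to -0.26 (Ggps1). Besides Srebf1, the rises were Scap (0.41), Hsd17b7 (0.37), Lpin1 (0.36) and Acaca (0.31). With sex as a covariate 23 members were called, beside 56.6% of all genes, and Acaca and Mvk (-0.39) lost their calls. Cell type markers moved in the same libraries. All 12 oligodendrocyte markers were higher in IP (summed level 1983 to 2218 FPKM in vehicle and 3860.3 to 5318 in QA mice). All 9 medium spiny neuron markers were lower (2142 to 2248 against 338 to 503.6 FPKM), and all 9 microglial markers higher (30.7 to 35.4 against 71.4 to 113 FPKM). Astrocyte markers were 6 higher and 3 lower of 12 (6373 to 7378 against 6813 to 7954 FPKM). Ependymal markers were higher for 5 of 5 (76.4 to 104 against 182 to 236 FPKM). General neuronal markers were 1 higher and 4 lower of 6 (1216 to 1305 against 443 to 717 FPKM). Of 4 tested endothelial markers 3 were higher and 0 lower (1.97 to 2.68 against 3.92 to 8.75 FPKM). No marker of these lists was at 0 throughout a group, and the part of these shifts in the result was not tested.

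Of 42 tested genes of the wider lipid list, 23 were higher and 13 lower in IP of QA mice. Abca1, the cholesterol exporter, rose by 2.20 on the log2 scale (31.5 ± 3.02 to 149 ± 8.27 FPKM, SD, n = 4). The elongases Elovl7 (1.35) and Elovl1 (1.29) and Lpin3 (1.20) rose too. Comparing experiments with separate controls, 16 genes were called lower with QA and higher with CNO in hM3Dq mice (84.2% of the QA list and 76.2% of the hM3Dq list, beside 19.8% and 32.1% for all genes tested in both), among them 7 of the 8 mevalonate genes. The reverse, higher with QA and lower with hM3Dq, was seen for Srebf1, Scap and Acaca (60.0% of both lists of 5, beside 28.6% and 46.1% for all genes). With rM3Ds, 7 of the 9 rising genes were among those lower with QA (77.8% of the rM3Ds list and 36.8% of the QA list, beside 25.3% and 2.09% for all genes).

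**Figure D4:**
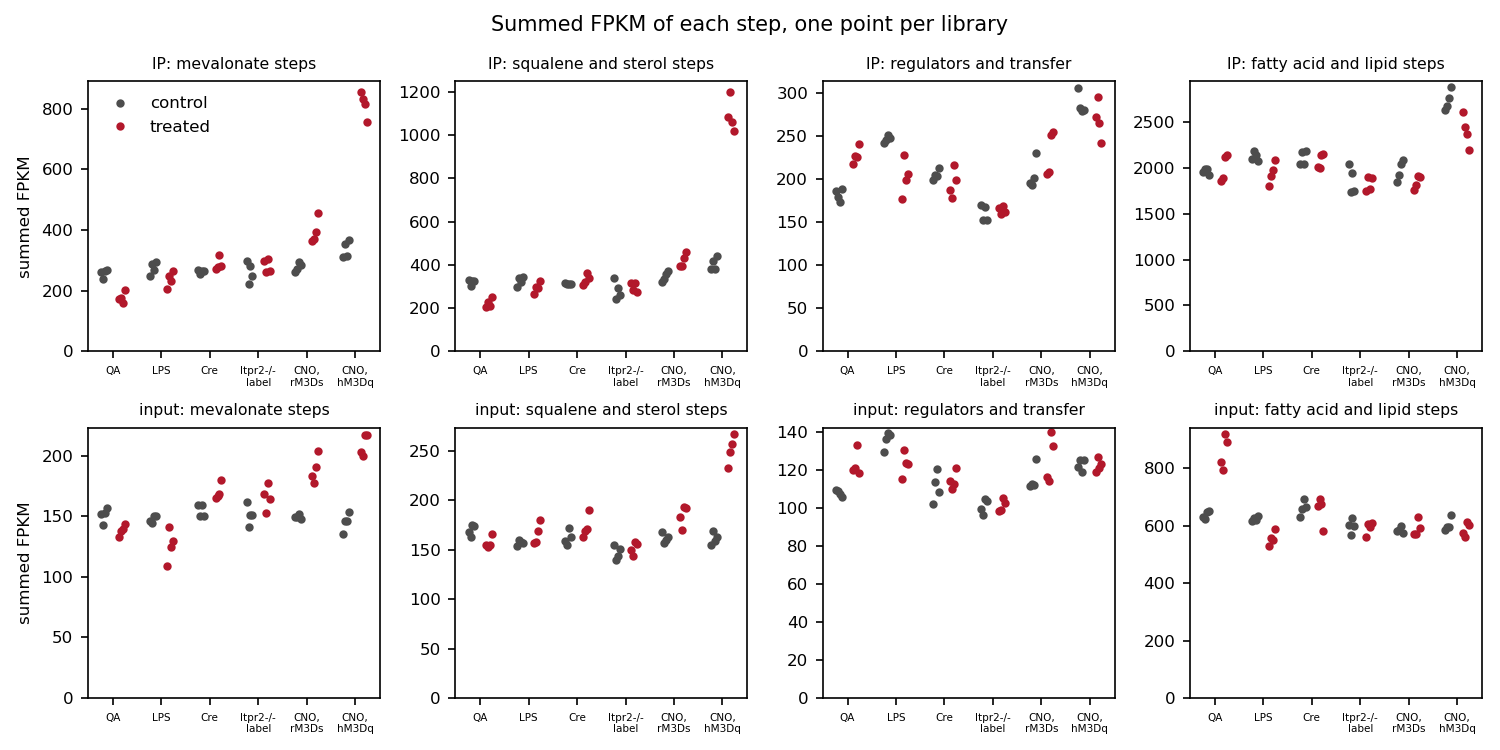
Summed FPKM of each step in IP (top) and input (bottom), 1 point per library, with control mice in grey and treated mice in red, and each axis starting at 0. In IP the mevalonate and the squalene and sterol sums are lower in QA mice and higher in CNO mice than in their controls, and the fatty acid sum is lower with CNO in hM3Dq mice.

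In input of QA mice, 8 members were higher and 15 lower (background: 73.2% of 14831 genes called, 34.8% higher and 38.5% lower). Without scaling factors, which moved the median of all genes from -0.0358 to 0.09, 12 were higher and 11 lower. Srebf1 stood at 16.8, 17.1, 14.8 and 15.5 FPKM against 37.4, 38.0, 43.2 and 35.0 FPKM (log2 change 1.12, SE 0.0656, adjusted p = 2.78e-07). Msmo1 stood at 55.2, 51.7, 57.9 and 56.0 FPKM against 36.9, 36.0, 35.5 and 41.9 FPKM (-0.68, adjusted p = 6.97e-06). Fads2 stood at 81.4, 79.6, 80.4 and 83.7 FPKM against 123, 126, 145 and 142 FPKM (0.59, adjusted p = 9.56e-06). All 3 had separate arms. Over the 34 members the arms were apart for 11 upward and 9 downward, beside 39.1% and 27.7% of all genes tested. Acat2 fell from 14.6, 14.5, 14.2 and 15.2 FPKM to 10.6, 9.96, 11.2 and 10.7 FPKM (-0.59, adjusted p = 1.81e-06). Mvd fell from 6.76, 7.39, 7.66 and 7.496 FPKM to 5.63, 5.75, 5.75 and 6.73 FPKM (-0.42, adjusted p = 8.6e-04). Srebf2 fell from 22.5, 21.0, 22.4 and 19.5 FPKM to 18.8, 18.2, 18.4 and 16.6 FPKM (-0.37, adjusted p = 1.43e-04). The arms of these 3 were apart as well. Stard4 was at 2.25, 2.26, 3.33 and 3.14 FPKM against 1.77, 2.10, 2.29 and 2.17 FPKM (-0.49, adjusted p = 0.0155), with overlap between the arms. It lost its call without vehicle replicate 3 or 4 and without scaling factors. With sex as a covariate 20 members were called, beside 58.3% of all genes, and Dhcr7, Ebp, Fads1 and Nsdhl lost their calls. In the same input libraries all 9 microglial markers were higher (summed level 800.5 to 938 FPKM in vehicle and 4426 to 6404 in QA mice), as were all 4 tested leukocyte markers (41.8 to 65.6 against 359.7 to 754 FPKM). Of the medium spiny neuron markers 8 of 9 were lower (4101 to 4213 against 1678 to 1859.7 FPKM). Oligodendrocyte markers were higher for 11 of 12 (1780.4 to 1940.4 against 2753 to 3167 FPKM), and astrocyte markers were 9 higher and 1 lower of 12 (1525 to 1626 against 2288 to 2735 FPKM). None was at 0 throughout a group, and their part in the result was not tested.

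For 23 members the response to QA was not the same in both fractions, 7 being more positive and 16 more negative in IP (background: 46.9% of 15154 genes, 22.3% and 24.7% in those directions). Without scaling factors, which moved the median of all genes from -0.0101 to -0.15, the split was 2 and 22. The largest differences in log2 change were -0.94 for Acly (adjusted p = 2.91e-06), 0.66 for Scap (adjusted p = 2.15e-05), -0.62 for Mvd and -0.61 for Insig1. Acly had fallen by 0.25 on the log2 scale in input. Fads1 and Fads2 differed by -0.49 and -0.44, having log2 changes of -0.38 and 0.09 in IP beside 0.16 and 0.59 in input.

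LPS changed fewer members, and 1 mouse stood apart. In IP, 6 were lower and 2 higher (background: 36.9% of 13641 genes called, 19.1% higher and 17.8% lower), a share of members below that of all genes. Without scaling factors, which moved the median of all genes from -0.022 to -0.16, 12 were lower and 0 higher (42.9% of all genes called). Mvd stood at 15.4, 18.2, 17.5 and 19.3 FPKM in vehicle mice against 7.16, 9.33, 8.95 and 10.3 FPKM in LPS mice (log2 change -0.84, SE 0.116, adjusted p = 0.00251). This was a clear separation, and Mvd was called under every alternative and without any 1 library. Insig2, a retention protein like Insig1, stood at 11.7, 11.8, 12.2 and 11.9 FPKM against 5.77, 12.5, 5.38 and 5.02 FPKM (-0.69, SE 0.218, adjusted p = 0.0376). The LPS mouse numbered replicate 2 lay above the vehicle range and the other 3 far below it.

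Acat2 stood at 19.3, 20.1, 20.6 and 20.6 FPKM against 14.7, 19.1, 12.5 and 12.5 FPKM (-0.33, adjusted p = 0.0314), with LPS replicate 2 again nearest to the controls. Mvk stood at 16.4, 19.3, 15.8 and 16.7 FPKM against 10.7, 14.98, 10.99 and 13.5 FPKM (-0.31, adjusted p = 0.0365). Fads2 stood at 254, 268, 240.1 and 244 FPKM against 173, 168, 181 and 216 FPKM (-0.31, adjusted p = 0.049). In deposited FPKM, before scaling, the arms of these 3 genes did not overlap. Over the 34 members the same held for 0 upward and 8 downward, beside 12.1% and 23.6% of all genes tested. The TMM factors were 1.047 to 1.053 in vehicle IP, and 0.912, 1.056, 0.912 and 0.933 in LPS IP. Overlap after scaling was not tested. Lpin1 stood at 11.5, 10.6, 11.03 and 11.96 FPKM against 10.5, 14.5, 13.1 and 12.3 FPKM (0.29, adjusted p = 0.0272), with overlap. Dhcr7 (-0.28) and fatty acid synthase Fasn (0.23) were the other calls. Without LPS replicate 2 the count rose to 15, while the share of all genes called rose to 61.3%. Without vehicle replicate 1, 2 or 3 or LPS replicate 3 it was 1 (19.5%, 18.3%, 18.6% and 16.1% of all genes). Without vehicle replicate 4 or LPS replicate 1 it was 2 (21.1% and 23.3%), and without LPS replicate 4 it was 4 (19.6%). In these IP libraries 5 of 12 oligodendrocyte markers were higher and 2 lower (summed level 1055 to 1780 FPKM in vehicle and 1431 to 2332 in LPS mice, overlapping ranges). Of 4 tested mural cell markers 3 were lower (25.1 to 28.3 against 10.4 to 19.4 FPKM), and of 9 medium spiny neuron markers 4 were (1348 to 1676 against 1087 to 1533 FPKM). Oligodendrocyte precursor markers were 1 higher and 3 lower of 6 (67.8 to 73.9 against 41.9 to 71.9 FPKM), and 5 of 12 astrocyte markers were higher (7287 to 8622 against 8021 to 8733 FPKM). None of these was at 0 throughout a group, and their part in the result was not tested. Of the wider list, Lpin3 (1.10), the lamin B receptor and sterol reductase Lbr (0.67) and the ubiquitin ligase Rnf139 (0.63) rose, and the sterol esterifying enzyme Soat1 fell by 0.61 on the log2 scale, among 7 higher and 4 lower of 41.

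In input of LPS mice 1 member was higher and 8 lower (background: 31.3% of 14511 genes called, 15.4% higher and 16% lower). The rise was Fdft1, squalene synthase, from 29.0, 28.6, 26.2 and 27.0 FPKM to 53.8, 37.2, 56.4 and 57.6 FPKM (log2 change 0.92, SE 0.157, adjusted p = 0.00562). Its arms were apart, with LPS replicate 2 the lowest of the LPS mice, whereas in IP its log2 change was 0.25 and did not pass the test. Mvd fell from 7.47, 8.11, 6.97 and 8.84 FPKM to 2.74, 6.13, 4.27 and 4.83 FPKM (-0.79, adjusted p = 0.0185). Sqle fell from 13.6, 15.1, 15.03 and 15.6 FPKM to 8.56, 12.3, 10.3 and 9.58 FPKM (-0.49, adjusted p = 0.006). Elovl6 fell from 11.9, 11.8, 11.4 and 11.7 FPKM to 7.34, 8.88, 7.79 and 8.43 FPKM (-0.47, adjusted p = 0.00185). No LPS library of these 3 genes reached the vehicle range. Over the 34 members the arms were apart for 1 upward and 10 downward, beside 13.0% and 15.6% of all genes tested. Fads2 fell from 52.4, 53.9, 51.4 and 56.4 FPKM to 33.8, 43.3, 39.1 and 42.4 FPKM (-0.38, adjusted p = 0.00507). Srebf2 fell from 26.3, 30.3, 30.7 and 29.8 FPKM to 22.6, 22.3, 23.4 and 24.5 FPKM (-0.28, adjusted p = 0.0278). Insig2 was at 13.7, 13.4, 14.8 and 12.9 FPKM against 7.20, 14.7, 6.55 and 7.08 FPKM (-0.65, adjusted p = 0.0438), with the same mouse within the vehicle range. Without LPS replicate 2 the count was 19, beside 60.2% of all genes called. Without vehicle replicate 2 or 4 or LPS replicate 3 it was 5, beside 13.9%, 16.5% and 12.5%. The effect differed between fractions for 5 members (background: 8.44% of 14908 genes, 5.53% more positive and 2.9% more negative in IP), led by Fdft1 (-0.68, adjusted p = 0.00218) and Insig1 (-0.57, adjusted p = 0.0186). Leaving out 1 mouse gave 1 to 9 such members, the 9 without LPS replicate 2 (32.7% of all genes). Without the mouse as a block none of these 5 was called (1.28% of all genes). In input 4 of 5 tested leukocyte markers were higher and none lower (summed level 19.9 to 38.2 FPKM in vehicle and 47.1 to 76.4 in LPS mice). Astrocyte markers were 6 higher and 2 lower of 12 (1366 to 1443 against 1435 to 1651 FPKM). Oligodendrocyte precursor markers were 1 higher and 3 lower of 6 (69.1 to 74.3 against 39.0 to 68.6 FPKM). Of 12 oligodendrocyte markers 3 were lower and 0 higher (1727 to 1982 against 1381 to 2100 FPKM). Medium spiny neuron markers were lower for 5 of 9 (3197 to 3383 against 2831 to 3105 FPKM), and microglial markers were 2 higher and 5 lower of 9 (508.2 to 623 against 474 to 759.9 FPKM). Their part in the result was not tested.

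The shifts with Cre in Kir4.1flox/flox mice were small. No Cre mice without the floxed gene were among the samples, so Cre and the fall of Kir4.1 cannot be told apart. In IP of the Cre mice 5 members were higher and 4 lower (background: 29.3% of 13537 genes called, 13.2% higher and 16.1% lower), close to the share of all genes. Scap fell from 39.4, 40.2, 40.7 and 41.3 FPKM to 31.6, 29.3, 31.6 and 30.2 FPKM (log2 change -0.36, SE 0.0361, adjusted p = 8.15e-05). Lpin1 fell from 15.6, 14.1, 15.5 and 14.8 FPKM to 11.1, 11.4, 12.1 and 11.1 FPKM (-0.36, SE 0.0445, adjusted p = 3.1e-04). Both had arms well apart. Over the 34 members the arms were apart for 3 upward and 3 downward, beside 10.1% and 20.3% of all genes tested. Mvd rose from 13.3, 14.3, 13.9 and 13.6 FPKM to 14.9, 15.1, 22.4 and 16.9 FPKM (0.35, adjusted p = 0.0395), the highest value being that of Cre replicate 3. Mvk rose from 10.8, 10.1, 10.7 and 10.9 FPKM to 11.6, 12.3, 13.5 and 11.5 FPKM (0.23, adjusted p = 0.0107). Hmgcs1 rose from 151, 146, 148 and 150.3 FPKM to 157, 165, 185 and 162 FPKM (0.20, adjusted p = 0.0113). The arms of these 3 were apart by small margins. Ebp stood at 9.76, 7.75, 8.74 and 8.32 FPKM against 6.91, 7.27, 7.82 and 7.15 FPKM (-0.21, adjusted p = 0.0454), with overlap. Insig2 (-0.19), Cyp51 (0.17) and the sterol desaturase Sc5d (0.14) were the other calls.

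Without scaling factors 2 members were higher and 4 lower, and with RLE scaling 6 and 3. Mvd and Cyp51 lost their calls without scaling factors and without a filter on low values, and Sc5d without scaling factors. Cyp51 also lost its call without TdTomato replicate 1 or 3 or Cre replicate 2, 3 or 4. Mvd lost its call without any 1 TdTomato mouse or Cre replicate 4, and Ebp without TdTomato replicate 1, 3 or 4 or Cre replicate 1, 2 or 4. In the same IP libraries 11 of 12 oligodendrocyte markers were lower (summed level 1422 to 1818 FPKM in TdTomato and 1022 to 1267 in Cre mice). Medium spiny neuron markers were higher for 8 of 9 (1462 to 1547 against 1787 to 1844 FPKM). None of these was at 0, and their part in the result was not tested. In the wider list 4 genes were higher and 9 lower of 41, with Lpin3 (-1.19), Elovl7 (-0.63), the liver X receptor gene Nr1h3 (-0.54) and Elovl1 (-0.39) changing most. In input 0 members were called (background: 0.346% of 14160 genes, 0.00706% higher and 0.339% lower). There 5 had an unadjusted p under 0.05, and voom on recovered reads also called 0. Log2 changes in input ran from -0.16 to 0.25. The effect differed between fractions for 1 member, Scap (-0.31, adjusted p = 0.0407, background 2.35% of 14583 genes, 0.624% more positive and 1.72% more negative in IP). That call was lost without any 1 of 7 of the 8 mice, and held without Cre replicate 3.

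In mice of the Itpr2-/- label 0 members were called in IP (background: 0% of 13359 genes) and 0 in input (0.00709% of 14099 genes). Unadjusted p was under 0.05 for 3 members in each fraction, and voom on recovered reads called 0 in both. Log2 changes in IP ran from -0.18 (Srebf1, SE 0.0741) to 0.38 (Insig1, SE 0.176). The effect differed between fractions for 0 members (background: 0% of 14482 genes), with 0 at an unadjusted p under 0.05 and 0 without the mouse as a block. The label's own gene gave no check of the deletion, as stated above.

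Across the experiments Srebf2 was not called between treated and control mice in IP, with log2 changes between -0.06 and 0.10, while in input it was lower with QA and with LPS. Nsdhl and Scd2 were not called in IP in any of the 6 experiments either. Mvd and Mvk were called in IP in 5 of the 6 experiments, lower with QA and LPS and higher in the Cre mice and with CNO in both receptor groups. Some of these calls were lost under alternatives. Mvk with LPS lost its call without any 1 vehicle mouse or LPS replicate 1 or 3, and Mvk with QA lost it with sex as a covariate. Mvd in the Cre mice lost its call under the settings given above. The plot of changes over all experiments gives the remaining values.

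**Figure D5:**
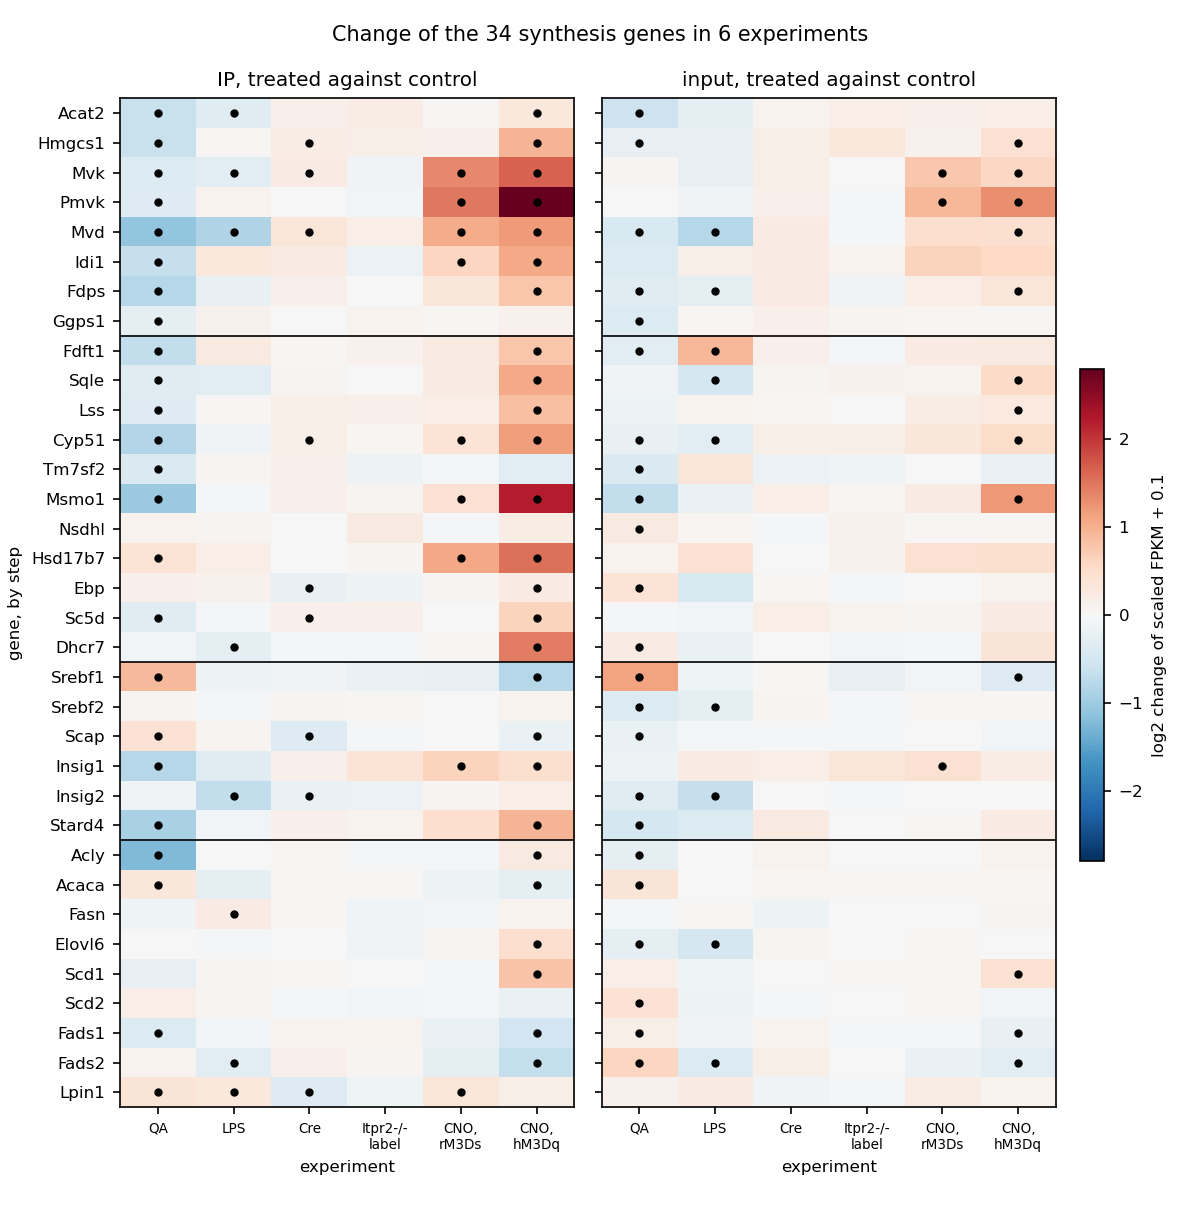
Log2 change of TMM-scaled FPKM + 0.1, treated against control, for the 34 genes (rows, by step) in IP (left) and input (right) of the 6 experiments. Red is higher, blue lower, and a dot marks an adjusted p under 0.05. The top 2 blocks, the mevalonate and the squalene and sterol steps, are mostly blue with QA and red with CNO in hM3Dq mice.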

How the data were processed

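Per the labels, RNA was sequenced from anti-HA immunoprecipitates and from input of striatal lysates. Reads were handled with STAR and HTSeq on mm10, per the submitters' processing notes, with no versions given. The labels name both a stranded total RNA kit with ribosomal depletion and polyA RNA, which was not settled here. The authors deposited 1 table of FPKM per library with 24060 gene entries. The unit was read from the values: dividing by what 1 read is worth per gene gave whole reads for 100% of values (tolerance 0.02 reads), and their totals are the depths reported. A stated design of 80 samples from 40 mice differs from the 96 libraries of 48 mice analysed here.

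FPKM values printed are the deposited ones, and overlap between arms was judged on them, before scaling. Log2 changes come from FPKM divided by TMM factors (trims 0.3 and 0.05) plus 0.1, so those of low genes are understated. Genes at 0.5 FPKM or more in at least 4 libraries were tested with limma-trend (limma 3.58.1, R 4.3.3). P-values were adjusted by Benjamini-Hochberg over all genes tested, two-sided, and called under 0.05. Each comparison used only its own libraries; IP against input and differences between fractions had the mouse as a block. The script was tested on simulated data. The labels give separate mice, so p-values of treated against control measure the spread between mice within an experiment. Those of IP against input and of differences between fractions measure the spread of differences within mice. IP against input pooled the control mice of all experiments, and the receptor contrast pooled the rM3Ds and hM3Dq experiments. Alternatives were RLE or no scaling, pseudocounts of 1 and 0.01, no filter, a replicate block, sex as a covariate, voom on recovered reads, no mouse block, and leaving out each library. The 34 members, the wider list of 47 lipid genes and the marker lists were chosen with earlier results of these data known. All 34 members passed the filter in every comparison and were named by step. Tables and figures used Python 3.11.15 with numpy 2.4.6, pandas 2.3.3 and matplotlib 3.10.9.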

Additional observations from a re-analysis of the deposited data

Results flagged for a closer look

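Of 96 summed levels (4 steps in each of 24 groups of 4 libraries, so that sums of a group share its libraries), 4 had 1 library far from the other 3 by Dixon's test at the 95% level, and chance gives about 1 in 20. They were a squalene and sterol sum of 166 FPKM in QA input, and sums of the regulators and transfer proteins of 133 FPKM in QA input, 126 FPKM in rM3Ds vehicle input and 306.0 FPKM in hM3Dq vehicle IP. The effect in IP differed from that in input, by a test of the difference, for 23 members with QA, 5 with LPS and 1 in the Cre mice. It also differed for 5 with CNO in rM3Ds mice and 20 with CNO in hM3Dq mice. The shares of all genes tested were, in that order, 46.9%, 8.44%, 2.35%, 2.19% and 21.3%. The CNO effect in IP differed between the receptors for 16 members, beside 27.7% of all genes tested.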

How the results depend on the processing

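Of the counts of called members under alternatives, 250 stayed within 1.5 times the value reported and 41 did not. The 250 include comparisons with 0 members called under every setting, which had nothing to lose. These were the Itpr2-/- label in IP, in input and between fractions, and the Cre mice in input. With LPS in IP the count of 8 was 4 without a filter on low values (24.9% of all genes called, from 36.9%). With CNO in rM3Ds input the count of 3 was 1 without a filter (0.376% of all genes, from 0.591%). Without the mouse as a block, the differences between fractions gave 0 members with LPS (1.28% of all genes) and 1 with rM3Ds (0.996%). Leaving out 1 library or mouse gave 1 to 15 members with LPS in IP, 5 to 19 with LPS in input, 1 to 3 with rM3Ds in input, 6 to 12 in IP of the Cre mice, 6 to 10 with rM3Ds in IP, 24 to 27 with hM3Dq in IP and 9 to 13 in input, and 24 to 26 with QA in IP and 20 to 24 in input. For differences between fractions it gave 1 to 9 with LPS, 0 to 1 in the Cre mice, 3 to 4 with rM3Ds, 18 to 19 with hM3Dq and 20 to 24 with QA, and for the difference between receptors 13 to 17. The share of all genes called moved as well. With LPS in IP it was 16.1% without LPS replicate 3 and 61.3% without LPS replicate 2, and in input 12.5% and 60.2%. The cause of these changes was not tested, beyond the LPS mouse named above. Deviations of mice of one replicate number in both arms correlated at -0.163 to 0.532. No comparison had all 4 over 0.1, so the numbers were not taken as pairing, though 3 of 4 were over 0.1 with rM3Ds in both fractions. A replicate block gave 5 with LPS in IP (losing Acat2, Dhcr7, Fads2, Fasn and Lpin1) and 7 in input (losing Fdps, Insig2 and Srebf2), 24 with hM3Dq in IP (losing Ebp and Scap) and 10 in input (losing Fads1, Fdps and Lss), 2 with rM3Ds in input (losing Insig1), and lost Ebp in the Cre mice. With this block the shares of all genes called were 29.5% and 24.4% with LPS in IP and input. They were 42.1% and 2.28% with hM3Dq, and 0.563% with rM3Ds in input. With rM3Ds in IP the count of 9 was 11 with the replicate block (4.55% of all genes) and 13 with sex as a covariate (6.01%). In IP of the Cre mice the count of 9 was 11 with sex as a covariate (29.4% of all genes). Of the single gene values, 1 reversed (Ebp, IP against input, control mice), at -0.019 without scaling factors. The number of mice, 4 per arm, limits small changes in low genes such as Idi1 and Stard4.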
